A study of Mus musculus with 18 samples.

Results

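The genes described here are 10 markers of spermatogonial stem cells: *Gfra1*, *Ret*, *Zbtb16*, *Id4*, *Nanos2*, *Etv5*, *Lin28a*, *Sall4*, *Foxo1* and *Lhx1*. They were chosen by name from what is known of these cells and not by a cut on their values, but with earlier results of these data known. All 10 were found among the 22657 genes of the table. RNA was sequenced from whole testes of ICR mice kept in culture for 48 h, in 6 groups of 3 samples. A0, A10 and A50 were testes of mice that had received no busulfan, cultured with 0, 10 or 50 µg/mL alginate oligosaccharides (AOS), short sugar chains cut from a brown seaweed polysaccharide. The donors of B0, BA10 and BA50 had been injected with busulfan, an alkylating drug, once at 40 µg per g body weight at 3 weeks of age, and their testes were cultured with those AOS concentrations. Testes were taken 2 weeks after the injection, at the same age in the mice without busulfan, and every group shared a medium of DMEM/F12 with 10% FBS. The methods give 6 testes per treatment and 3 repeats of the cultures. Neither they nor the labels say whether the 3 samples of a group are those repeats or came from separate animals, so p-values measure the spread between these samples only. The comparisons ask what busulfan did to these genes and whether AOS in the medium altered them.

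Spermatogonial stem cells are a small part of the undifferentiated spermatogonia on the wall of the seminiferous tubule, and they divide either to renew themselves or to give cells that go on to meiosis. Sertoli cells and other somatic cells release GDNF, which binds GFRA1 and signals through the RET kinase, and genes such as *Etv5*, *Lhx1* and *Id4* lie downstream of that signal. Several of these markers are also used outside the germ line, since Sertoli cells use *Etv5* and many somatic cells use *Foxo1*, *Zbtb16* and *Id4*. Values are FPKM, reads per gene scaled by transcript length and by the reads of the library. In RNA from whole testes, fewer cells of a type and less RNA per cell cannot be told apart.

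All 10 genes are protein coding, and their places below are those of the GENCODE annotation on GRCm38. The receptor genes were *Gfra1* (chr19:58235604-58455909, minus strand) and *Ret* (chr6:118151745-118197718, minus strand). The RNA-binding protein genes were *Nanos2* (chr7:18987400-18988962, plus strand) and *Lin28a* (chr4:134003330-134018841, minus strand). The transcription factor genes were *Sall4* (chr2:168748332-168767943, minus strand), *Zbtb16* (chr9:48654297-48836222, minus strand), *Etv5* (chr16:22381309-22439719, minus strand), *Foxo1* (chr3:52268336-52353221, plus strand), *Lhx1* (chr11:84518284-84525535, minus strand) and *Id4* (chr13:48261228-48266026, plus strand). Exons of 6 of them (*Gfra1*, *Id4*, *Sall4*, *Foxo1*, *Nanos2* and *Lin28a*) overlap an annotated gene on the opposite strand. The strand of the libraries is not stated, so reads of such a pair cannot be told apart.

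RefSeq promoter windows (GRCm38.p6) were at hand for 7 of the 10 genes, and 3 of them are printed because they belong to a gene that fell to near 0 after busulfan (*Lin28a*), a gene that fell in part (*Id4*) and a gene whose change did not pass the test (*Foxo1*). Each is the 250 bases before the start site, on the gene's strand, with GC boxes in capitals. The windows are chr4:134018817-134019066 (minus strand), chr13:48260866-48261115 (plus strand) and chr3:52268087-52268336 (plus strand).
Lin28a: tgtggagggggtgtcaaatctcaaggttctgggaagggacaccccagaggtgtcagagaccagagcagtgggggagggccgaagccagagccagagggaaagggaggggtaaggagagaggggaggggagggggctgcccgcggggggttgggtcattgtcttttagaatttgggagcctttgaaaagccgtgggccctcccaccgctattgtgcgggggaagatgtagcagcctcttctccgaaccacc
Id4: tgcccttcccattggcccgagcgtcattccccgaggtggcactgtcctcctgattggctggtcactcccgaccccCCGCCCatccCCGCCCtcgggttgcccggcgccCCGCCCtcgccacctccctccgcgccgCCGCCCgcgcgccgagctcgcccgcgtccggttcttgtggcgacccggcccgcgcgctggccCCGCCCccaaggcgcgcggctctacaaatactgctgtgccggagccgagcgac
Foxo1: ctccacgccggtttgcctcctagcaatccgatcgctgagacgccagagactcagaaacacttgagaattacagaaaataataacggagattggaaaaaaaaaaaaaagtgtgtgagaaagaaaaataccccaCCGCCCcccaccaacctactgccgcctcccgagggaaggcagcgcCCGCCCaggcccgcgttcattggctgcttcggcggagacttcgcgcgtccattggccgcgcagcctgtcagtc
The *Id4* window held 35 CpG and 5 GC boxes (GGGCGG, read on both strands), the *Foxo1* window 20 CpG and 2 GC boxes, and the *Lin28a* window 7 CpG and no GC box, where the median of all 32817 windows was 6 CpG and 32.7% held a GC box. The FOXO motif GTAAACA was in 1 of the 8 windows of these genes, at the upstream start of *Etv5*, 183 bases before the start, and 3.16% of all windows held it. The ETS motif CCGGAAGT was in none of the 8 windows and in 2.88% of all windows. The TATA motif TATAAA was in the *Nanos2* window alone among them, and in 12.4% of all windows. No matches overlapped one another, and a match is a description of the letters only.

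The sum of FPKM per sample ranged from 463970 to 511274, and 14291 to 15040 genes per sample had at least 1 FPKM. How many reads lie behind these values is unknown. Across genes on the log2(FPKM + 1) scale, Pearson's r within a group was lowest in A10 (0.962, with replicate 3 apart from the others) and BA50 (0.970, with replicate 2 apart). Of the marker lists, 7 of 9 genes of spermatocytes and 6 of 6 genes used by germ cells at all stages fell with busulfan (limma, adjusted p under 0.05), while of 8 spermatid genes 0 fell and 1, *Tssk6*, rose. Their summed FPKM was 350.2 to 469.7 without and 57.7 to 129.9 with busulfan for spermatocytes, and 439.3 to 934.4 and 192.1 to 519.6 for germ cells at all stages. The 5 fat cell genes tested all rose, with summed FPKM from 41.3 to 83.6 without and from 66.9 to 727.1 with busulfan. By group the fat cell sums were 186.8 to 727.1 in B0, 66.9 to 120.8 in BA10 and 100.7 to 136.4 in BA50. Beside these counts, 24.8% of all genes tested fell and 13.3% rose with busulfan averaged over AOS levels.

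In control testes (A0), the 10 genes spanned a wide range of FPKM, which is a value per transcript length. *Etv5* (11.6 ± 2.38, SD, n = 3), *Id4* (9.57 ± 1.39) and *Foxo1* (9.44 ± 0.607) were the most abundant, and their values overlapped. Below them came *Lin28a* (3.78 ± 0.590), *Zbtb16* (3.30 ± 0.710), *Gfra1* (2.37 ± 0.484), *Ret* (1.91 ± 0.452) and *Sall4* (1.78 ± 0.481), each overlapping its neighbour in this order. *Lhx1* (0.32 ± 0.040) and *Nanos2* lay apart from the rest and from each other. In B0 the order was *Etv5*, *Foxo1*, *Id4*, *Zbtb16*, *Gfra1*, *Ret*, *Lhx1*, *Lin28a*, *Sall4* and *Nanos2*. Neighbours in B0 overlapped only for *Gfra1* with *Ret* and for *Sall4* with *Nanos2*.

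**Figure D1:**
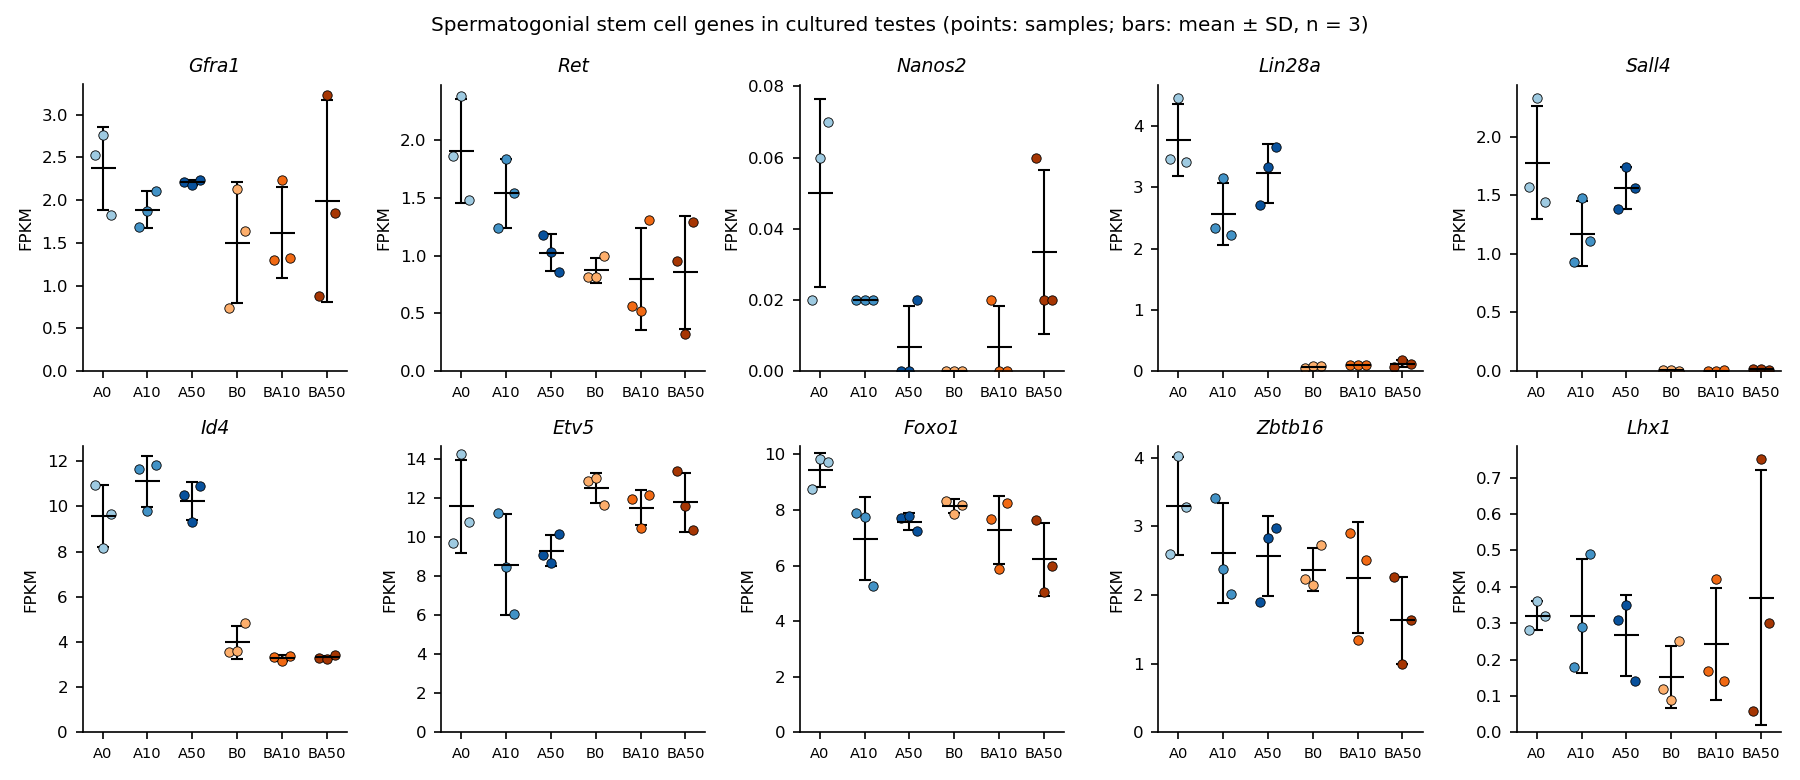
FPKM of the 10 stem cell genes (vertical axes, each starting at 0) in the 6 groups (horizontal axes), with 1 point per sample and bars for the mean ± SD of 3 samples. *Lin28a*, *Sall4* and *Id4* lay lower in all 9 busulfan samples than in all 9 others, with *Lin28a* at 0.18 FPKM or less after busulfan.

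Busulfan lowered *Lin28a*, *Sall4* and *Id4* in every comparison and *Ret* over all AOS levels together. *Etv5* rose slightly, also only over all AOS levels together, and *Gfra1*, *Zbtb16* and *Foxo1* did not pass the test. Changes are differences of mean log2(FPKM + 1) from limma, which understate the change of genes with low values, and a gene was called at an adjusted p under 0.05. Of the 10 genes, 8 reached the required 1 FPKM in 3 samples, and *Lhx1* and *Nanos2* did not. *Sall4* reached it through untreated samples alone, as did *Lin28a*, so both had to be lower after busulfan to some degree. The same holds for any tested gene of the marker lists that stayed below 1 FPKM in every busulfan sample. For busulfan averaged over the 3 AOS levels, 4 genes were called lower and 1 higher, where 24.8% of the 15790 genes tested were called lower and 13.3% higher. The median change of the 8 genes was -0.38, beside 0.01 over all genes tested. Without the filter, all 10 genes were tested, and the same 4 were called lower and the same 1 higher, beside 20.2% lower and 8.73% higher of all genes.

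LIN28A, an RNA-binding protein that blocks the maturation of let-7 microRNAs, marks undifferentiated spermatogonia. *Lin28a* was at 3.47, 4.46 and 3.41 FPKM in A0, 2.34, 3.15 and 2.22 in A10, and 2.71, 3.33 and 3.66 in A50. With busulfan it was at 0.05, 0.08 and 0.08 in B0, 0.10, 0.09 and 0.09 in BA10, and 0.07, 0.18 and 0.11 in BA50. The groups were far apart, and the 9 busulfan samples together kept 2.96% of the mean of the 9 others. The change was -1.92 (SE 0.07, adjusted p = 3.18e-11). The exact permutation test within AOS levels gave p = 0.00025 (two-sided), the smallest its 8000 divisions allow.

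*Sall4*, a zinc finger transcription factor of undifferentiated and early differentiating spermatogonia, was at 1.57, 2.33 and 1.44 FPKM in A0, 0.93, 1.48 and 1.11 in A10, and 1.38, 1.74 and 1.56 in A50. It was listed at 0.01, 0.01 and 0 in B0, at 0, 0 and 0.01 in BA10, and at 0.02, 0.02 and 0.01 in BA50. The highest busulfan sample thus lay far below the lowest untreated sample, and 3 busulfan samples were listed at 0. The change was -1.30 (SE 0.07, adjusted p = 2.94e-09, exact permutation p = 0.00025, the smallest possible).

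ID4, an inhibitor of DNA binding, marks the cells with the most stem cell activity. *Id4* was at 10.92, 8.15 and 9.64 FPKM in A0, 11.67, 9.81 and 11.81 in A10, and 10.48, 9.30 and 10.91 in A50. In the busulfan groups it was at 3.56, 3.58 and 4.83 in B0, 3.34, 3.16 and 3.40 in BA10, and 3.27, 3.26 and 3.41 in BA50. The 2 sets of 9 did not overlap, but unlike *Lin28a* and *Sall4* the gene kept 34.3% of its mean. The change was -1.32 (SE 0.07, adjusted p = 1.06e-09, exact permutation p = 0.00025, the smallest possible). *Lin28a*, *Sall4* and *Id4* were the 3 genes of the 10 whose 9 busulfan samples lay wholly below the 9 others, as 9.66% of all genes tested did, and none lay wholly above, as 0.513% did.

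Each AOS level on its own gave the same 3 calls. In B0 vs A0, 3 of the 8 genes tested were called lower (12.3% of all genes) and 0 higher (1.47%). In BA10 vs A10, 3 were lower (15.2% of all genes) and 0 higher (3.74%). In BA50 vs A50, 3 were lower (16.2% of all genes) and 0 higher (3.7%). The fall of *Lin28a* was -2.15, -1.70 and -1.91 at 0, 10 and 50 µg/mL AOS. For *Sall4* these changes were -1.45, -1.11 and -1.33. For *Id4* they were -1.08, -1.49 and -1.38, so the smallest was without AOS, where the other 2 genes had their largest. No gene of the 8 differed past the threshold in its busulfan change between AOS levels (smallest adjusted p 0.877). Over all 10 genes, B0 lay wholly below A0 for 7, or 5 of the 8 tested (22.7% of all genes tested), and wholly above for 0 (10.5%). BA10 lay below A10 for 3 (20.2%) and above for 0 (11%), and BA50 lay below A50 for 3 (25.7%) and above for 1, *Etv5* (16%).

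**Figure D2:**
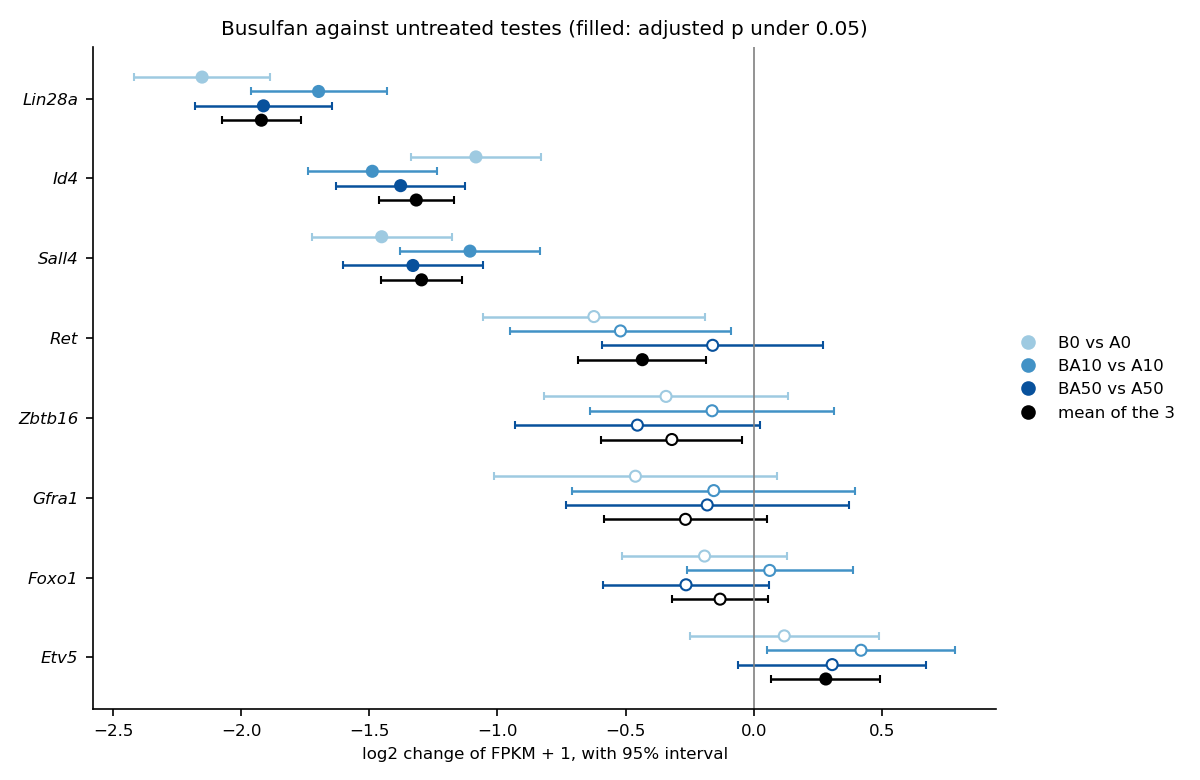
Change with busulfan (horizontal axis, difference of mean log2(FPKM + 1) with 95% interval) of the 8 stem cell genes tested, at each AOS level and averaged over them, with filled points for an adjusted p under 0.05. *Lin28a*, *Id4* and *Sall4* lie left of 0 in all 4 estimates, and *Ret* and *Etv5* are filled only in the average (-0.43 and 0.28).

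Of the receptor genes, *Ret* fell over the AOS levels together and *Gfra1* did not pass the test. *Ret*, the kinase that carries the GDNF signal into the cell, was at 1.86, 2.38 and 1.48 FPKM in A0, 1.24, 1.84 and 1.54 in A10, and 1.18, 1.03 and 0.86 in A50. After busulfan it was at 0.81, 0.81 and 1.00 in B0, 0.56, 0.52 and 1.31 in BA10, and 0.95, 0.32 and 1.29 in BA50. B0 lay below A0, but the other pairs of groups overlapped. Over AOS levels the change of *Ret* was -0.43 (SE 0.12, adjusted p = 0.00874, exact permutation p = 0.0055), with 56.5% of the mean left. No single AOS level gave a call: the change was -0.52 in BA10 vs A10 (adjusted p = 0.0868) and -0.16 in BA50 vs A50 (adjusted p = 0.622). In B0 vs A0 alone it was -0.62 (SE 0.20, adjusted p = 0.0546), and this passed the threshold without BA10 replicate 3, BA50 replicate 2 or BA50 replicate 3 (adjusted p 0.0233 to 0.0431). These samples enter that comparison only through the shared estimate of the spread.

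*Gfra1*, the co-receptor that binds GDNF, was at 2.53, 2.76 and 1.83 FPKM in A0, 1.68, 1.87 and 2.11 in A10, and 2.21, 2.18 and 2.24 in A50. With busulfan it was at 0.74, 2.13 and 1.64 in B0, 1.30, 2.24 and 1.32 in BA10, and 0.88, 3.23 and 1.85 in BA50. The busulfan samples were more scattered than the others and held both the lowest and the highest value. The change of *Gfra1* was -0.27 (SE 0.15, adjusted p = 0.172, exact permutation p = 0.099), with a 95% interval of ± 0.32. Without BA50 replicate 2, its highest sample, the change was -0.36 and the adjusted p was 0.0387. That sample also had the highest summed FPKM of the 8 spermatid genes (10893, against 2288 to 6590 in the other busulfan samples), the highest *Lhx1* and the lowest *Ret*, *Zbtb16* and *Foxo1*. The part of these differences in the *Gfra1* result was not tested.

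Of the other transcription factors tested, *Etv5* rose over the AOS levels together and *Foxo1* and *Zbtb16* did not pass. *Etv5*, an ETS factor induced by GDNF and FGF, was at 9.71, 14.27 and 10.78 FPKM in A0, 11.25, 8.46 and 6.07 in A10, and 9.08, 8.69 and 10.19 in A50. In the busulfan groups it was at 12.91, 13.02 and 11.65 in B0, 11.95, 10.48 and 12.15 in BA10, and 13.41, 11.59 and 10.38 in BA50. The highest and the lowest sample were both untreated (A0 replicate 2 and A10 replicate 3), and BA50 lay wholly above A50. The means were 12.5, 11.5 and 11.8 FPKM in B0, BA10 and BA50, against 11.6, 8.59 and 9.32 in A0, A10 and A50. No single AOS level gave a call for *Etv5*. The limma change was 0.12 in B0 vs A0 (adjusted p = 0.753), 0.42 in BA10 vs A10 (adjusted p = 0.105) and 0.31 in BA50 vs A50 (adjusted p = 0.238). Over AOS levels the change of *Etv5* was 0.28 (SE 0.10, adjusted p = 0.0370, exact permutation p = 0.012), at 121.5% of the untreated mean. This call was lost in 11 of the 18 fits that left out 1 sample (adjusted p 0.0517 to 0.0762), namely without A0 replicate 1 or 3, A10 replicate 2 or 3, A50 replicate 1 or 2, B0 replicate 1 or 2, BA10 replicate 1 or 3, or BA50 replicate 1.

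*Foxo1*, a forkhead factor held in check by AKT, was at 8.74, 9.85 and 9.72 FPKM in A0, 7.90, 7.75 and 5.25 in A10, and 7.70, 7.80 and 7.25 in A50. After busulfan it was at 8.34, 7.85 and 8.19 in B0, 7.68, 5.89 and 8.26 in BA10, and 7.63, 5.05 and 5.98 in BA50. A0 stood above B0 without overlap, while the other pairs of groups overlapped. The change of *Foxo1* with busulfan was -0.13 (SE 0.09, adjusted p = 0.249, exact permutation p = 0.16), with an interval of ± 0.19, and 90.1% of the mean was left.

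*Zbtb16*, the gene of PLZF, a repressor needed for stem cells to renew themselves, was at 2.60, 4.02 and 3.28 FPKM in A0, 3.42, 2.38 and 2.02 in A10, and 1.90, 2.83 and 2.97 in A50. With busulfan it was at 2.24, 2.14 and 2.73 in B0, 2.90, 1.35 and 2.51 in BA10, and 2.26, 1.00 and 1.63 in BA50. All 3 pairs of groups overlapped. The change of *Zbtb16* was -0.32 (SE 0.13, adjusted p = 0.0637, exact permutation p = 0.0275, not adjusted), with 73.8% of the mean left. It passed the threshold without A10 replicate 3, A50 replicate 1, BA10 replicate 1 or BA50 replicate 1 (adjusted p 0.0335 to 0.0449). A10 replicate 3, which held the lowest *Etv5* and the lowest untreated *Foxo1*, also had the lowest summed FPKM of the Sertoli cell genes (1143, against 2555 to 4491 in the other untreated samples), and the part of this in the results was not tested.

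*Lhx1* and *Nanos2* stayed below 1 FPKM in all 18 samples. *Lhx1*, a LIM homeobox gene downstream of GDNF, was at 0.28, 0.36 and 0.32 FPKM in A0, 0.18, 0.29 and 0.49 in A10, and 0.31, 0.35 and 0.14 in A50. It was at 0.12, 0.09 and 0.25 in B0, 0.17, 0.42 and 0.14 in BA10, and 0.06, 0.75 and 0.30 in BA50, so that B0 lay below A0 while BA50 held both the lowest and the highest value. The exact permutation test of busulfan within AOS levels gave p = 0.481 for *Lhx1*. *Nanos2*, an RNA-binding protein that keeps stem cells from differentiating, was at 0.02, 0.06 and 0.07 FPKM in A0 and at 0.02 in each A10 sample. It was listed at 0 in 2 A50 samples, all 3 B0 samples and 2 BA10 samples, and was at 0.06, 0.02 and 0.02 in BA50. Busulfan over AOS levels gave an exact permutation p of 0.303 for *Nanos2*. Without the filter, *Nanos2* was called lower in B0 vs A0 (-0.07, adjusted p = 0.0335, beside 9.76% of all genes called lower), at levels where the table has 2 decimals.

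AOS did not move any of the 8 genes past the threshold. In A10 vs A0, 0 of 8 were called (0% of all genes higher and 0% lower), with the smallest adjusted p at 0.322. In A50 vs A0, 0 were called (0% and 0% of all genes), with the smallest at 0.275. In BA10 vs B0, 0 were called (0% of all genes higher and 0.0253% lower), with the smallest at 0.749. In BA50 vs B0, 0 were called (0.00633% of all genes higher and 0.0887% lower), with the smallest at 0.177. These comparisons share control samples, A0 for the first pair and B0 for the second.

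At an unadjusted limma p under 0.05, 4 of 8 genes differed in A10 vs A0, 1 in A50 vs A0, 0 in BA10 vs B0 and 1 in BA50 vs B0, where 15.2%, 15.6%, 5.05% and 24.3% of all genes did. The 4 in A10 vs A0 were all lower: *Lin28a* (-0.42), *Etv5* (-0.41), *Foxo1* (-0.41) and *Sall4* (-0.35), each with an adjusted p of 0.322. *Lin28a* and *Foxo1* in A10 lay wholly below A0, as 12.2% of genes did, and none of the 10 lay above, as 7.81% did. *Ret* was lower in A50 than in A0 (-0.51, SE 0.20, adjusted p = 0.275), and the 3 A50 samples lay below the 3 A0 samples. *Foxo1* in A50 also lay below A0 (-0.28, adjusted p = 0.356), and 23.2% of genes did so, while none of the 10 lay above A0, as 17.6% of genes did. *Foxo1* was lower in BA50 than in B0 (-0.35, SE 0.15, adjusted p = 0.177) with no overlap, as 13.5% of genes were. *Nanos2*, which was not tested there, lay above B0 in BA50, as 11.2% of genes did. With 3 samples a group, an exact permutation test cannot give a p below 0.1.

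With AOS, *Lin28a* and *Sall4* after busulfan stayed far below their untreated levels. *Lin28a* in BA10 (0.09 to 0.10 FPKM) lay above B0 (0.05 to 0.08), as 3.64% of genes did, with a change of 0.03 and a 95% interval of ± 0.27, at levels far below those of A0. *Sall4* differed from B0 by -0.0048 in BA10 and 0.01 in BA50, with intervals of ± 0.27. *Id4* was lower in BA10 and in BA50 than in B0 without overlap, as 7.75% and 13.5% of genes were (-0.21, adjusted p = 0.749, and -0.20, adjusted p = 0.298). *Id4* was the only one of the 8 with a positive difference in A10 vs A0 (0.20, adjusted p = 0.379) and in A50 vs A0 (0.09, adjusted p = 0.656). The AOS change with busulfan was also set against that without it, and 0 of 8 genes were called at either concentration (smallest adjusted p 0.910 at 10 µg/mL and 0.877 at 50 µg/mL), as were 0% of all genes.

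**Figure D3:**
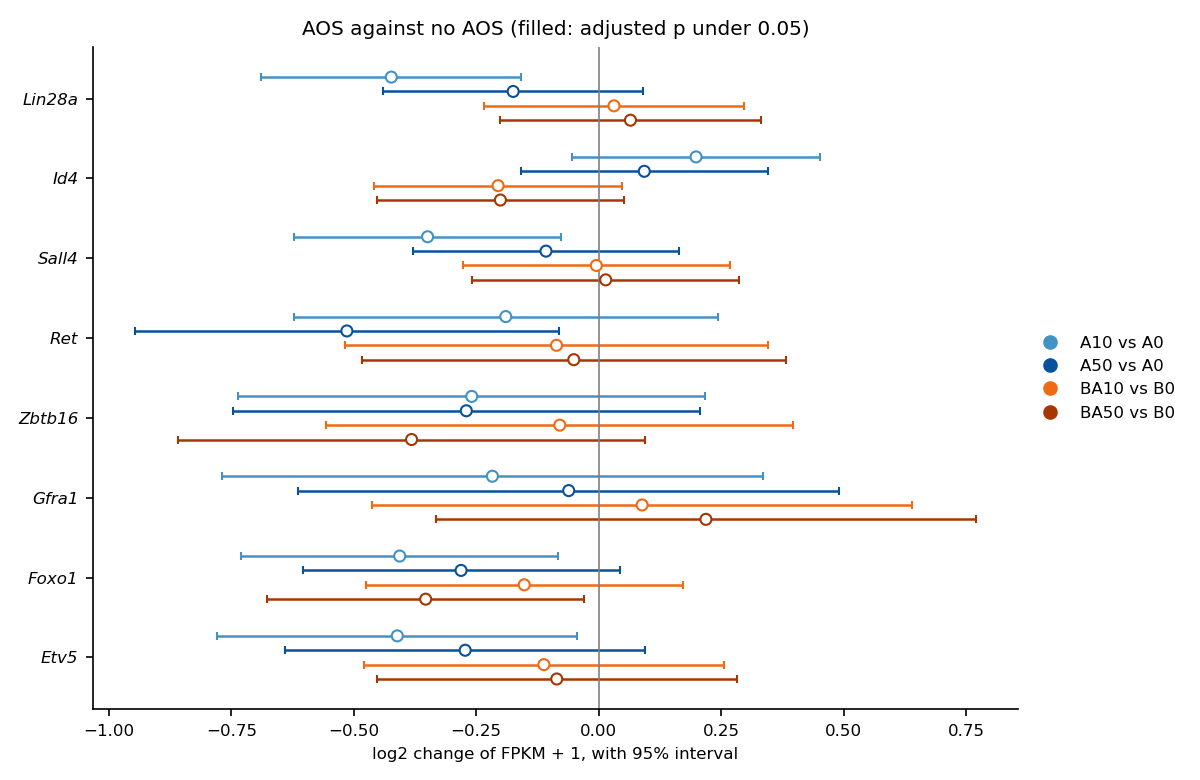
Change with AOS (horizontal axis, difference of mean log2(FPKM + 1) with 95% interval) of the 8 stem cell genes tested, in the 4 comparisons with the group without AOS. All points are open, since no adjusted p was under 0.05, and the widest intervals are those of *Gfra1* (± 0.55).

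Around the receptors of the GDNF pathway, *Gdnf* rose and *Gfra4* fell after busulfan. Of the 8 other ligands and receptors of the GDNF family, 6 were tested, and with busulfan over AOS levels 1 was called higher, 1 lower and 4 neither, with a median change of 0.07. Of all genes tested, 13.3% were called higher and 24.8% lower. *Gdnf* itself, made by somatic cells of the testis, was at 3.20, 4.86 and 4.45 FPKM in A0, 3.79, 4.53 and 3.44 in A10, and 2.72, 4.17 and 3.46 in A50. After busulfan *Gdnf* was at 5.31, 5.73 and 5.57 in B0, 6.99, 7.58 and 5.84 in BA10, and 10.74, 10.39 and 6.80 in BA50. The 9 busulfan samples all lay above the 9 others, as 0.513% of genes did, with a change of 0.74 (SE 0.10, adjusted p = 2.94e-05). *Gdnf* in BA10 and in BA50 also lay wholly above B0, as 3.64% and 11.2% of genes did. Neither difference passed the test (0.63, SE 0.17, adjusted p = 0.104 in BA50 vs B0).

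*Gfra4*, a co-receptor of the same family, ranged from 4.72 to 9.56 FPKM without and from 2.74 to 5.41 with busulfan. It fell over AOS levels (-0.66, SE 0.09, adjusted p = 3.41e-05). Of all genes tested, 13.3% rose and 24.8% fell, and these are the shares beside each count that follows. Of 16 genes that relay the RET signal inside cells, all were tested, 6 rose and 0 fell, with a median change of 0.19. Those with the largest rises were the adaptors *Dok5* (0.33), *Shc1* (0.32) and *Grb2* (0.32) and the phosphatase *Ptpn11* (0.28). Many cell types use these genes. Of 11 other ligands of the stem cell niche, 10 were tested, 5 rose and 0 fell, with a median change of 0.34. The largest rises among them were those of *Kitl*, the ligand of the KIT receptor (0.54, adjusted p = 0.000409), *Lif* (0.53), *Csf1* (0.51) and *Ccl9* (0.50). Of 11 Sertoli cell genes tested 1 rose and 0 fell, and of 7 Leydig cell genes 2 rose and 0 fell. Summed FPKM of the Sertoli cell genes was 1143 to 4491 without and 3003 to 5370 with busulfan. Of the genes tested, 3 of 7 endothelial, 1 of 8 macrophage, 0 of 6 peritubular myoid and 0 of 3 erythrocyte genes rose and none of these fell, and of 5 simple epithelium genes 3 rose and 1 fell. These calls average over AOS levels. Summed FPKM of the epithelium genes was 79.6 to 204.6 in B0, 17.0 to 28.1 in BA10 and 20.2 to 28.9 in BA50. Untreated samples held 25.4 to 46.8. Endothelial sums were 98.7 to 112.0 in B0, 52.5 to 91.7 in BA10, 37.5 to 87.7 in BA50 and 48.3 to 80.0 untreated. B0 is the control of both AOS comparisons after busulfan. The part of cell mixture in these rises and in those comparisons was not tested.

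**Figure D4:**
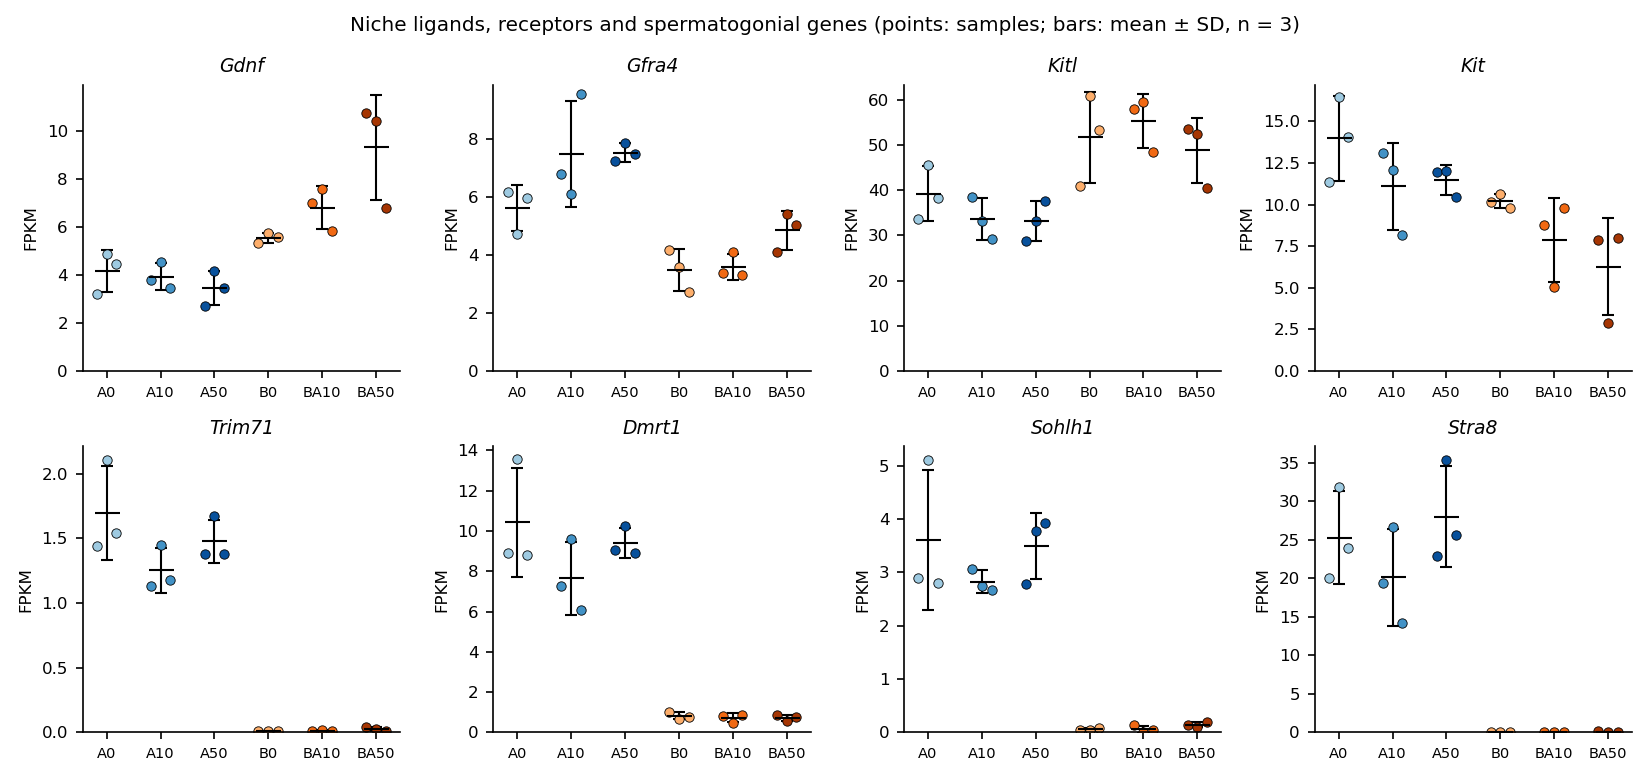
FPKM (vertical axes, each starting at 0) of the ligands *Gdnf* and *Kitl*, the receptors *Gfra4* and *Kit* and the spermatogonial genes *Trim71*, *Dmrt1*, *Sohlh1* and *Stra8* in the 6 groups, with 1 point per sample and bars for the mean ± SD of 3 samples. *Gdnf* lay at 2.72 to 4.86 without and at 5.31 to 10.74 with busulfan, while the lower row was near 0 after busulfan apart from *Dmrt1*, at 0.47 to 1.03.

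Other genes of undifferentiated spermatogonia also held some that fell and some that did not. Of 27 such genes, 13 were tested for busulfan over AOS levels, and 3 rose, 3 fell and 7 passed in neither direction, with a median change of 0.08. Of all genes tested, 13.3% rose and 24.8% fell. The 3 that fell were *Sohlh1* (-1.97, adjusted p = 3.58e-10), a factor that starts differentiation, *Sox3* (-0.99, adjusted p = 4.93e-08), a factor of committed progenitors, and *Taf4b* (-0.75, adjusted p = 6.32e-08), part of the germ cell transcription machinery. *Sox3* was at 0.52 to 1.46 FPKM without and at 0.08 or less with busulfan. *Sohlh1* was at 0.19 or less with busulfan. Both reached the required 1 FPKM through untreated samples alone, so both had to be lower after busulfan to some degree. The 3 that rose were *Egr3* (0.39), *Upp1* (0.37) and *Cxcr4* (0.35), of which *Egr3* and *Cxcr4* are used by many somatic cells too. *Uchl1* (46.1 to 100.1 FPKM without and 37.2 to 99.98 with busulfan) did not pass (-0.03, adjusted p = 0.852). That average covers opposite differences. *Uchl1* in B0 (37.2 to 57.2) lay wholly below A0 (60.9 to 100.1), as 22.7% of genes did. In BA50 (66.1 to 99.98) it lay wholly above A50 (49.9 to 55.1), as 16% did, and BA10 overlapped A10.

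Without the filter all 27 were tested, and 12 fell and 1 rose, beside 20.2% and 8.73% of all genes. Among the low genes that then fell, singled out here after their values were seen, were *T* (0.14 to 0.67 FPKM without and 0 to 0.03 with busulfan), *Pou3f1* (0.42 to 0.91 and 0.03 to 0.22) and *Egr4* (0.46 to 0.98 and 0.10 to 0.48). *T* marks stem and progenitor cells. Among the low genes that did not pass, also singled out after their values were seen, were *Foxc2* (-0.10), *Nanos3* (-0.04), *Utf1* (-0.03) and *Shisa6* (0.10). Genes downstream of GDNF did not all fall: of those named at the start, *Id4* fell, *Etv5* rose slightly over the AOS levels together and *Lhx1* was not called.

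Genes of the next stage fell. Of 9 genes of differentiating spermatogonia, 8 fell and 1, *Ccnd2*, did not pass (0.02, adjusted p = 0.880), with a median change of -1.68 and a summed FPKM of 280.3 to 442.6 without and 127.7 to 237.5 with busulfan. Of all genes tested, 24.8% fell. Some of the 8, such as *Stra8*, reached the required 1 FPKM through untreated samples alone, so they had to be lower after busulfan to some degree. *Stra8*, induced by retinoic acid at the entry to meiosis, was at 14.2 to 35.4 FPKM without and at 0.12 or less with busulfan (-4.58, adjusted p = 1.06e-12). *Dmrt1*, which controls the choice between mitosis and meiosis, was at 6.06 to 13.6 FPKM without and at 0.47 to 1.03 with busulfan (-2.51, adjusted p = 5.94e-11). *Kit*, the receptor that marks differentiating spermatogonia but is used by Leydig cells as well, was at 8.16 to 16.5 and at 2.91 to 10.7 FPKM (-0.58, adjusted p = 0.0124). The 2 most abundant genes of the list, *Dmrtb1* and *Ly6k*, fell only in part, and their samples overlapped. *Dmrtb1* was at 91.9 to 259.1 FPKM without and at 46.1 to 126.7 with busulfan. *Ly6k* was at 58.2 to 114.1 FPKM without and at 36.4 to 72.6 with busulfan.

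**Figure D5:**
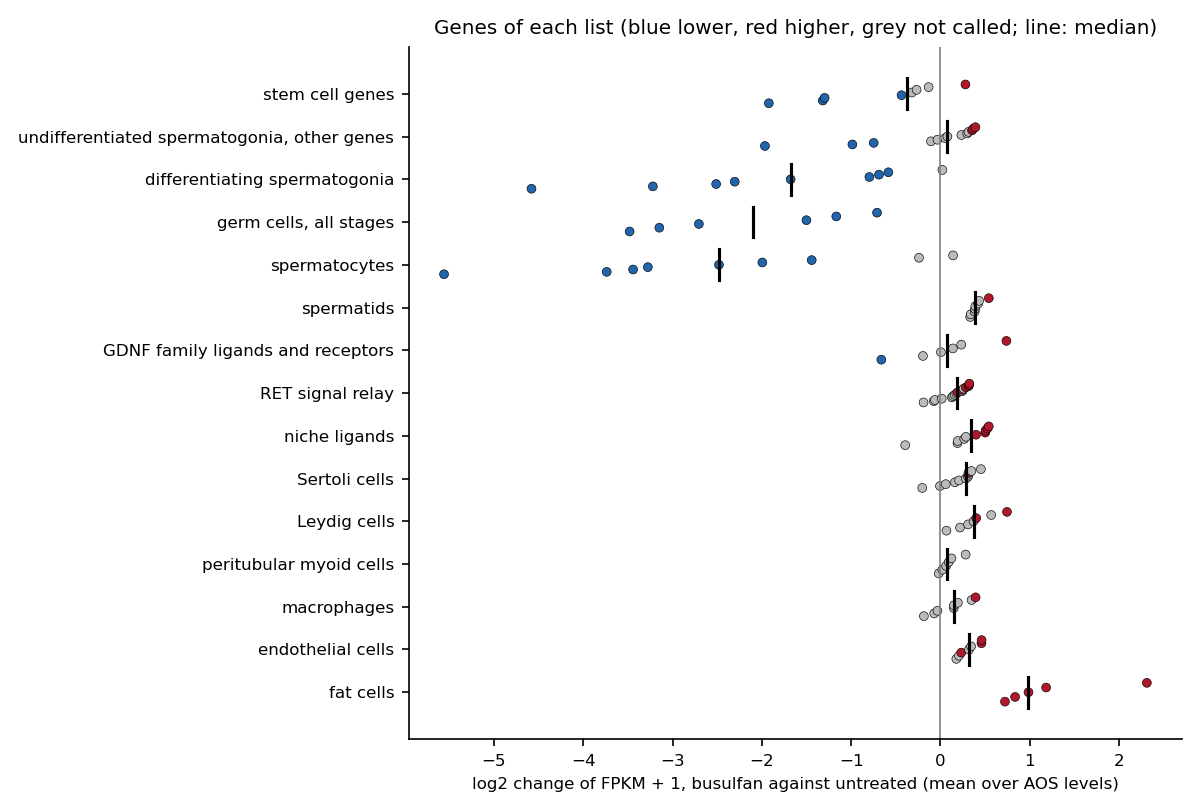
Change with busulfan averaged over AOS levels (horizontal axis, difference of mean log2(FPKM + 1)) of each gene tested in the marker and pathway lists, blue where called lower, red where called higher and grey where not called, with a line at each median. The stem cell genes spread from -1.92 to 0.28, and the median of the differentiating spermatogonia was -1.68.

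For each of the 8 genes tested, the 3 genes whose log2(FPKM + 1) followed it most closely over the 18 samples were sought. For *Sall4* these were *Trim71* (Pearson's r = 0.997), *Lin28a* (0.995) and *Dmrt1* (0.992), and for *Lin28a* they were *Mageb4* (0.997), *Trim71* (0.996) and *Ezhip* (0.995). *Trim71*, a partner of LIN28A in the let-7 network, was at 1.13 to 2.11 FPKM without and at 0.04 or less with busulfan. Samples with and without busulfan form separate clusters for these genes. With each value taken as its deviation from the group mean, r was 0.932, 0.828 and 0.755 for *Sall4* with *Trim71*, *Lin28a* and *Dmrt1*. It was 0.780, 0.722 and 0.901 for *Lin28a* with *Mageb4*, *Trim71* and *Ezhip*. Deviations of *Id4* ran the other way, with r = -0.662 with *Sall4* and -0.497 with *Lin28a*. For *Id4* the nearest was *Mtfr2* (0.986, and 0.865 for deviations), followed by *Ccne2* (0.981, and 0.390) and *Cdc7* (0.977, and 0.467).

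The genes that followed the other 5 were not spermatogonial markers of the lists. They were led by *Ubr7* for *Gfra1* (0.891), *Ndrg4* for *Ret* (0.849), *Clcc1* for *Zbtb16* (0.920), *Itprid2* for *Etv5* (0.938) and *Mta2* for *Foxo1* (0.949). For these 5 pairs r of the deviations was 0.897, 0.790, 0.879, 0.893 and 0.955. These correlations are descriptions over samples that share libraries, and the pairs were picked for a high r among all genes tested.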

How the data were processed

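FPKM values of 18 cultured mouse testes were analyzed. The authors prepared oligo(dT) libraries, sequenced them on an Illumina HiSeq and deposited FPKM per gene and sample to 2 decimals. The submitters' processing notes name HISAT, Bowtie2, RSEM and GRCm38.p5, without settings, whereas the supplementary methods describe SOAPaligner and RPKM. Read counts were not used here, so the depth is unknown and no counting interval was computed. Groups came from the sample labels. Gene numbers were matched to symbols through RefSeq (GRCm38.p6): 20656 of 20811 matched, and 1846 gene models carry no number.

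The 15790 genes that reached 1 FPKM in 3 or more samples were tested with limma 3.58.1 in R 4.3.3 on log2(FPKM + 1), with 1 coefficient per group, eBayes with trend, two-sided p-values and Benjamini-Hochberg adjustment over all genes tested. MARS, used in the study, needs counts and was not run. The fit was tested on simulated data. Single genes were tested with exact permutation within AOS levels. Tables and figures used Python 3.11.15, pandas 2.3.3, NumPy 2.4.6 and matplotlib 3.10.9. The 10 genes, the marker lists and the tests were chosen with earlier results of these data known. The plan was to name the 10, and from each list the called genes (at most 4 in each direction) and the 2 most abundant. It also took the 3 genes most like each of the 8 tested. Some of these are left out here, and some genes outside the plan, such as *Kit* and *Ccnd2*, are named. Those said to be singled out later are outside it too. Alternatives were quantile normalization, a replicate block, a pseudocount of 0.1, fits restricted to the compared groups, eBayes with no trend, all genes unfiltered, genes averaging 5 FPKM or more, the study's limits (adjusted p of at most 0.001 and a log2 change of at least 1) and each sample left out. Same-numbered samples deviated together most for BA50 with B0 (r = 0.56, 0.42 and 0.14). For BA50 with A50 r was 0.04, 0.20 and 0.13, and each other pair of groups compared held a negative r. The numbers come from the labels. The methods state 3 repeats of the cultures, but neither source says that a number marks a shared repeat.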

Additional observations from a re-analysis of the deposited data

How the results depend on the processing

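The busulfan calls of *Lin28a*, *Sall4* and *Id4* held in each of the comparisons under every alternative in which the gene was tested. With a mean of at least 5 FPKM required, *Lin28a* and *Sall4* were not tested, and the number of stem cell genes called was 1 in B0 vs A0, 1 in BA10 vs A10, 1 in BA50 vs A50 (*Id4* each time) and 2 for busulfan over AOS levels (*Id4* and *Etv5*). At the study's limits the count over AOS levels was 3. With each sample left out in turn it was 3 to 4 in B0 vs A0, 3 to 4 in BA10 vs A10, 3 in BA50 vs A50 and 4 to 6 over AOS levels, and 0 in the AOS comparisons. The added gene in BA10 vs A10 was *Etv5* without A10 replicate 1 and *Ret* without BA10 replicate 3 or BA50 replicate 2. *Ret* was also called in B0 vs A0 with no trend and with only the groups compared. No direction of a called change reversed. Without A10 replicate 3 and BA50 replicate 2, a choice made after seeing the data, 4 were called over AOS levels (*Etv5* no longer) and 4 in B0 vs A0 (*Ret* as well), and the other counts were as reported. With the replicate block, 0 stem cell genes were called in BA50 vs B0, in the fit of all samples and in one of those 2 groups alone (added after seeing the data), and the block moved no other count by over 1.5 times. FPKM of 2 decimals and unknown depth limit what can be said of *Nanos2*, *Lhx1* and the remaining *Sall4* and *Lin28a*.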
